A study of Mus musculus with 9 samples.

Results

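Potassium, sodium and chloride channel genes were followed through RNA sequencing libraries of mouse gastrocnemius, the main calf muscle. They were taken by gene symbol, as every row that starts with Kcn or Clcn or that is named Scn, a number and a or b. This gave 117 of the 23284 genes in the count table. The 47 described here were selected on their measured level, at least 1 CPM in 4 or more of the 9 libraries, where CPM is the read count scaled to a common library size after TMM normalization. The 5 control libraries carried a genotype written Grpc6afl/fl, that is, loxP sites around the receptor gene Gprc6a on both alleles. The 4 knockout libraries carried the same alleles and Mck-Cre, a recombinase driven by the muscle creatine kinase promoter, which is active in striated muscle. Their titles name Gprc5a, while their genotype and description fields name Gprc6a. Nothing in the labels ties each library to its own animal, so p-values measure only the spread between these libraries. All mice were 3 months old, of 129/C57/BL6 background, and had exercised. Neither muscle with Cre alone nor unexercised muscle was among the groups, so an effect of Cre and one of the deletion cannot be told apart.

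A muscle fibre fires when voltage-gated sodium channels open, and it recovers through potassium channels and through an unusually large chloride conductance that steadies the resting membrane. The sodium channel pore of adult muscle is encoded by Scn4a and the chloride channel by Clcn1, and inherited changes in either can cause myotonia. Potassium channels fall into families that open with voltage (Kv), that pass current inward near rest (Kir), that respond to calcium, and that leak at rest (tandem pore domain channels). Silent Kv subunits such as the Kcng4 product form no channel alone and modify other Kv subunits when they assemble with them.

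Total counts were between 19522947 and 25608659 per library. Gprc6a itself had 0 counts in all 9 libraries, which leaves the knockout labels without a check from its counts. Markers of muscle fibres summed to 118398 to 157375 CPM over the 5 controls and 127940.0 to 156649 CPM over the 4 knockouts. The list for slow fibres summed to 6651 to 11306 CPM over the 5 controls and 6545 to 10893 CPM over the 4 knockouts. Its largest member, Myh2, at a control mean of 3371 CPM, encodes the myosin of fast 2A fibres, so the sum is not of slow fibres alone. All 6 genes of this list had log2 fold changes of knockout against control below 0, with a median of -0.22, and none passed edgeR's test. Markers of Schwann cells and axons summed to 112 to 329 CPM over the 5 controls and 176 to 322 CPM over the 4 knockouts, and those of smooth muscle and pericytes to 331 to 576 CPM over the 5 controls and 402 to 512 CPM over the 4 knockouts. Endothelial markers summed to 295 to 321 CPM over the 5 controls and 311 to 337 CPM over the 4 knockouts, leukocyte markers to 58.3 to 85.3 CPM over the 5 controls and 62.8 to 83.2 CPM over the 4 knockouts, and markers of denervated or immature fibres to 163 to 318 CPM over the 5 controls and 194 to 286 CPM over the 4 knockouts. Erythroid markers, of which 2 of 6 were at 0, summed to 55.5 to 78.7 CPM over the 5 controls and 69.6 to 373 CPM over the 4 knockouts. No marker of any other list had 0 counts in all libraries. In bulk tissue, fewer cells of a type and less RNA per cell cannot be told apart. The libraries also leaned unequally to long or short transcripts. The median log2 level of genes with transcripts of at least 6000 bases, relative to the control mean and minus that of genes under 1000 bases, was 0.55, -0.13, -0.09, 0.31 and -0.64 for the controls in the order of their numbers. The same measure was 0.05, 0.09, -0.67 and -0.38 for the knockouts. Control 5 and knockouts 3 and 4 thus held relatively fewer long transcripts, and control 1 relatively more.

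Levels of different genes were compared per kilobase of the longest annotated transcript, and ranked among 22777 genes by the mean of the 5 controls. Membership in the 47 rests on these same levels, so they are given as a description. The Kv channel Kcna7 stood at 95.6 ± 5.20 CPM per kb (SD, n = 5; rank 461), the muscle sodium channel pore Scn4a at 86.1 ± 18.7 (rank 518) and the beta subunit Scn4b at 84.6 ± 8.86 (rank 530). The ranges of these 3 over the control libraries overlapped, so their order is not resolved. Lower stood Kcnj11, the pore of the ATP-sensitive potassium channel, at 52.4 ± 4.10 CPM per kb (rank 859), the Kv channel Kcnc4 at 43.3 ± 5.43 (rank 1046) and the chloride channel Clcn1 at 41.2 ± 12.3 (rank 1084). The control ranges of Kcnj11, Kcnc4 and Clcn1 all overlapped with each other, so their order is not resolved either. The inward rectifiers Kcnj12 and Kcnj2 stood at 21.4 ± 3.66 and 13.03 ± 2.58 CPM per kb, ranks 2107 and 3199, and the Kv channel Kcnc1 at 12.3 ± 1.27, rank 3342. Here too ranges overlapped: that of Kcnj12 with those of Clcn1 and Kcnj2, and that of Kcnj2 with that of Kcnc1.

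**Figure D1:**
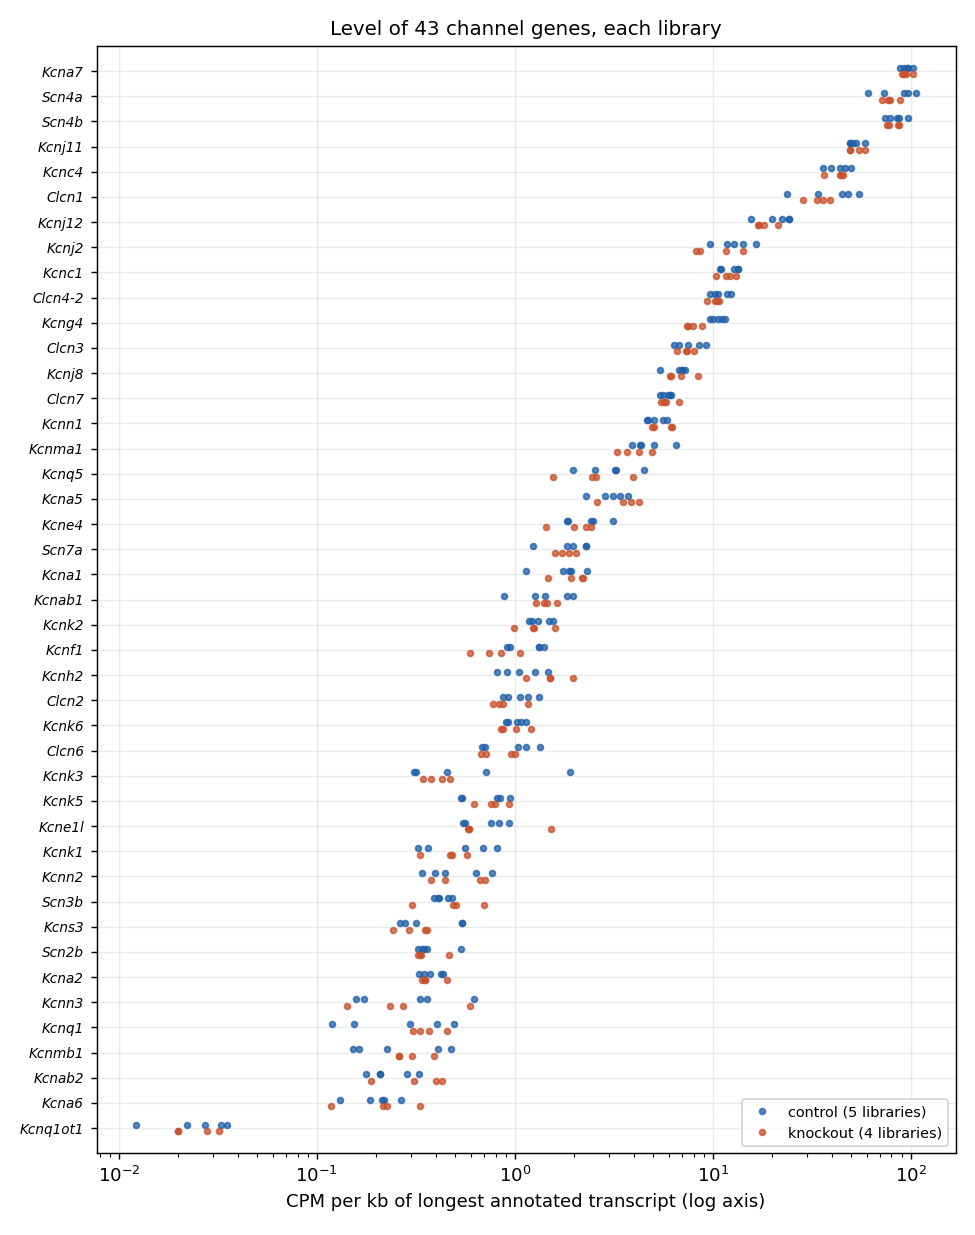
Level of 43 of the 47 channel genes in every library, as CPM per kb of the longest annotated transcript on a log axis, ordered by the control mean (blue points, 5 control libraries; orange points, 4 knockout libraries). Kcng4 is the only gene plotted whose 4 knockout points all lie below its 5 control points, and for the other 42 the groups overlap.

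Of the 47, 5 ranked among the 1000 highest genes, 7 among the 2000 highest and 13 among the 5000 highest. With the median annotated transcript length in place of the longest, 3 ranked among the 1000 highest, and Kcna7 and Scn4b went to ranks 1168 and 1338. Kcnj11 then stood at rank 310, above Scn4a at rank 672. The place of Kcnj11 below Kcna7, Scn4a and Scn4b thus depends on the transcript length used. The median member ranked 8856, and the lowest was the non-coding RNA Kcnq1ot1 at rank 15433. Kcnq1ot1 is antisense to Kcnq1 and shares 121 exonic bases with it in the reference annotation. Whether the authors counted by strand is not given in the sources used here, and without strand the reads of this pair cannot be told apart. In all, 17 of the 47 genes share exonic bases with another annotated gene, 6 of them with a gene that is also in the table. Among these is Clcn1, with 445 bases shared with Fam131b on the opposite strand.

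In the comparison of knockout with control muscle, none of the 47 channel genes passed edgeR's quasi-likelihood test at an adjusted p of 0.05, against a background of 0% of 13198 tested genes called, and the smallest adjusted p among them was 0.967. DESeq2 called 7 and limma-voom 0 of all tested genes, and neither called any of the 47. The smallest adjusted p of a member in DESeq2 was 0.0503, for Kcng4, which is no independent support because Kcng4 was singled out with its value known. Its adjusted p was 0.385 or more under the other alternatives. At an unadjusted p under 0.05 there were 2 lower members, Kcnf1 and Kcng4, where the background is 1.8% of tested genes, and 1 higher member, Kcnh2, where it is 1.38%. The log2 fold change, knockout minus control throughout, was below 0 in 31 of 47 members, or 66.0%, where 50.6% of all tested genes were below 0. Its median was -0.05 over the members and -0.0023 over all tested genes. The median of the members was -0.11 without knockout 2, -0.02 without control 1, and -0.02 without controls 4 and 5. In size, 37 of 47 log2 fold changes lay within 0.25 of 0, or 78.7%, against 81.2% of all tested genes. All 47 passed the count filter, and none had met the level threshold through libraries of 1 group alone.

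**Figure D2:**
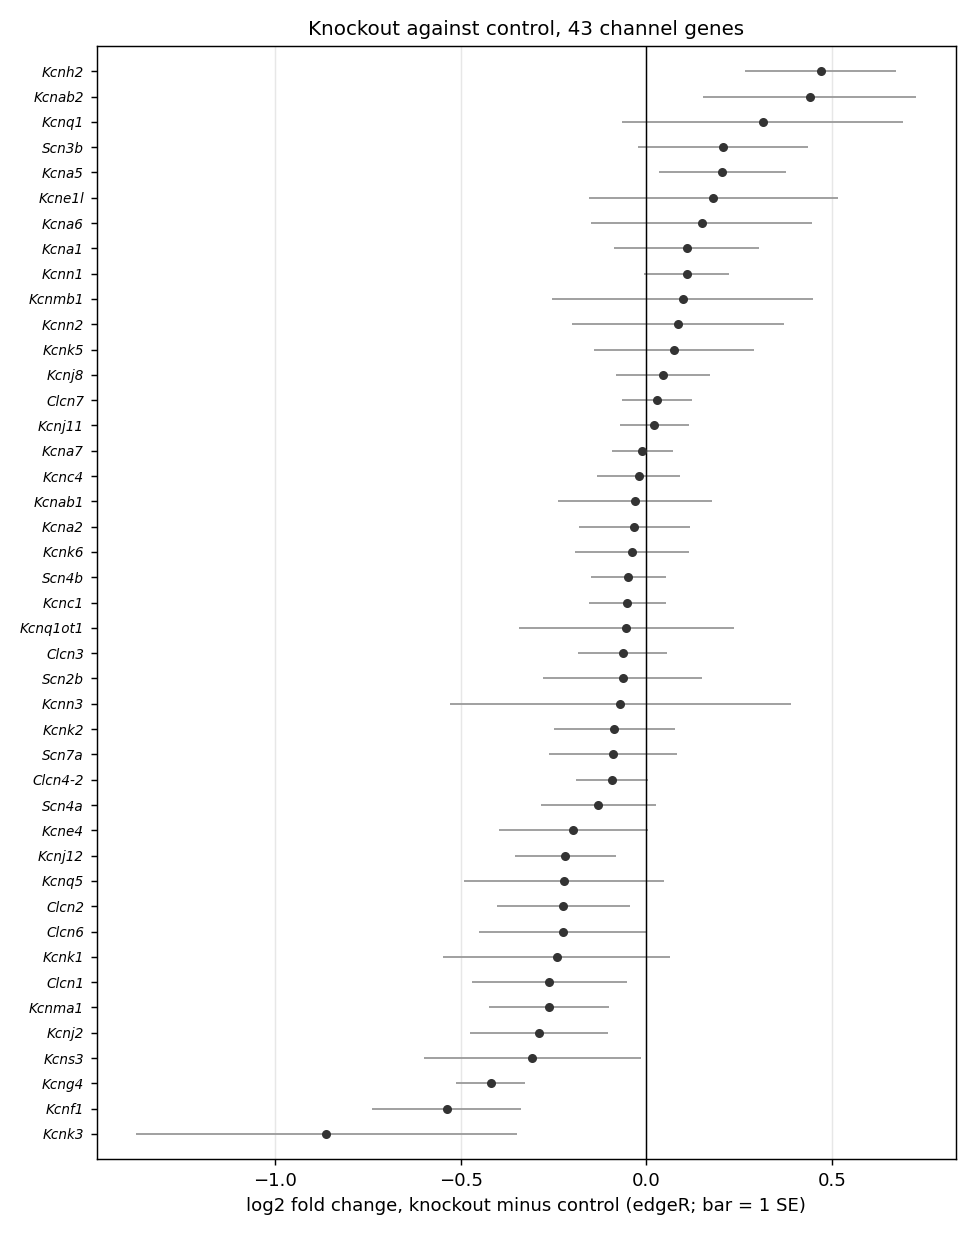
Log2 fold change of 43 of the 47 channel genes, knockout minus control, from edgeR with bars of 1 SE (5 control and 4 knockout libraries), ordered by value. The points run from -0.86 for Kcnk3 to 0.47 for Kcnh2, and Kcng4 at -0.42 has the shortest bar among the members of largest change.

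Kcng4 had been named for this comparison with its difference already known, so its values are a description and carry no test. It stood at 40.5, 36.9, 43.8, 38.0 and 42.3 CPM in controls 1 to 5 and at 33.5, 30.4, 28.5 and 28.2 CPM in knockouts 1 to 4. The groups did not overlap: the highest knockout lay below the lowest control, which held for 0.371% of all tested genes in this direction. The means were 40.3 ± 2.88 CPM (SD, n = 5) and 30.1 ± 2.47 CPM (SD, n = 4), a log2 fold change of -0.42 (SE 0.09). Its rank per kb was 3712 in controls and 4525 in knockouts. The fold change was -0.31 without control 5 and knockouts 3 and 4, the libraries with fewer long transcripts, and between -0.48 and -0.39 with any single library left out. Control 5 itself, with about as strong a lean to short transcripts as knockout 3, had the second highest Kcng4 level of the 9 libraries. The part of the lean in the Kcng4 difference was not tested.

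The other silent Kv subunits were much scarcer. Of the 10 matching symbols of this kind, 3 met the level threshold, Kcng4 included, and the log2 fold change was below 0 in all of them. Kcnf1 stood at 4.54, 6.72, 6.37, 4.36 and 6.33 CPM in the controls and at 4.06, 3.54, 5.12 and 2.86 CPM in the knockouts. Knockouts 1, 2 and 4 lay below every control, while knockout 3 lay among them, and the log2 fold change was -0.54 (SE 0.20) with an adjusted p of 0.967 in edgeR. Kcns3 stood at 0.817, 0.769, 0.932, 1.59 and 1.595 CPM in the controls and at 1.04, 0.716, 0.853 and 1.06 CPM in the knockouts. Controls 4 and 5 exceeded all 4 knockouts and the other controls did not, and the log2 fold change of -0.31 (SE 0.29) was about as large as its error.

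**Figure D3:**
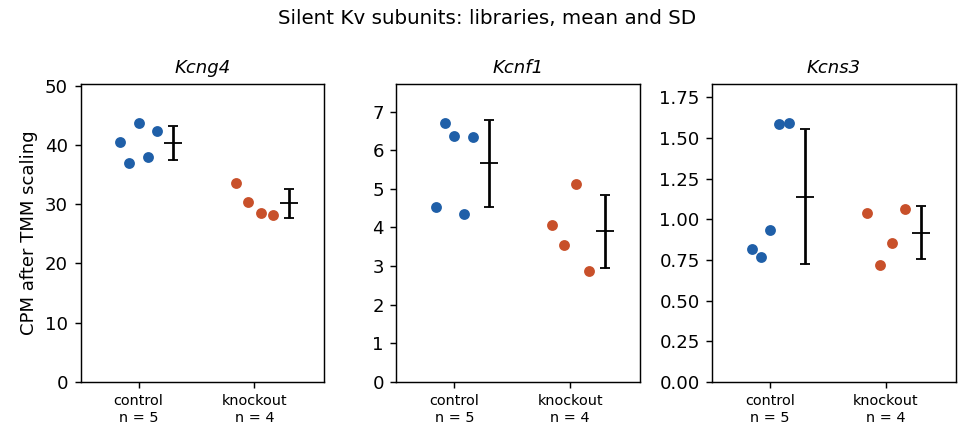
CPM after TMM scaling of the silent Kv subunits Kcng4, Kcnf1 and Kcns3, each panel with its own axis from 0 (points, single libraries; bars beside them, mean and SD; blue, 5 controls; orange, 4 knockouts). The groups are apart for Kcng4 (36.9 CPM or more against 33.5 CPM or less) and overlap for Kcnf1 and Kcns3.

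The promoter windows of Kcng4, the member whose groups did not overlap, and of Clcn1, the one window of a member with a MEF2-like match, are shown with matches to motifs of muscle regulators in capitals. Each runs from 250 bases before to 50 after the annotated start, in RefSeq's GRCm38.p6. The motifs searched on both strands were CAGCTG, an E-box that myogenic factors can bind, CTA and TAG with any 4 bases between them, a MEF2-like element, and TATAAA, which can lie inside a MEF2-like match. Kcng4 lies at chr8:119635631-119635930 on the minus strand and has 1 E-box.
Kcng4: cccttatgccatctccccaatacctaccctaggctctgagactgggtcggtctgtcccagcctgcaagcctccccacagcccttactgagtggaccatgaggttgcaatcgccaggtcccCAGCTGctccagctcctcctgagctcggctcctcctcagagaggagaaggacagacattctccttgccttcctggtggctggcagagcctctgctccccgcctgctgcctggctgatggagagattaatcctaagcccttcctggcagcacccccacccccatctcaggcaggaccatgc
Clcn1 lies at chr6:42286435-42286734 on the plus strand, and its MEF2-like match encloses its TATAAA.
Clcn1: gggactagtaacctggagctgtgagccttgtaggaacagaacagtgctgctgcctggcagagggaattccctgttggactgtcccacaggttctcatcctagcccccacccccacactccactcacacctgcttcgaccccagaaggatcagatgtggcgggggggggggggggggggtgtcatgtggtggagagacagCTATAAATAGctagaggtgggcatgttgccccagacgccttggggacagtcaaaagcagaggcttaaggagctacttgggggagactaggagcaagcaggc
Windows were found for 36 of the 47 genes, 49 windows in all. CAGCTG stood in 11 of these, or 22.4%, and in 16.3% of all 32851 windows. TATAAA stood in 4.08% against 13.6%, and the MEF2-like letters in 1, or 2.04%, against 3.69%. A match describes the letters and is not a binding site, and its absence from this window says nothing about the factor.

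The sodium channel was measured through its pore, Scn4a, and its beta subunits, which adjust gating and surface level. Scn4a stood at 706, 640.4, 486, 609 and 399.6 CPM in the controls and at 583, 518, 470.5 and 507 CPM in the knockouts. All 4 knockouts lay within the range of the controls, and the log2 fold change was -0.13 (SE 0.15). The beta subunit Scn4b stood at 485, 424, 390.3, 437 and 371 CPM in the controls and at 379, 388, 433 and 430.5 CPM in the knockouts. Control 1 was highest and control 5 lowest, and the log2 fold change was -0.05 (SE 0.10). Scn4a was likewise highest in control 1 and lowest in control 5, followed by knockout 3. These are the libraries at the ends of the lean to long or short transcripts, and the longest annotated transcript of Scn4a is 6598 bases. The part of that lean in the values of single genes was not tested. Of the other sodium channel genes, Scn7a, a sodium-sensing relative of the pores, averaged 14.1 ± 3.22 CPM in controls. The beta subunit Scn3b stood at 1.996, 1.90, 1.63, 1.72 and 1.70 CPM in the controls and at 1.25, 2.91, 2.09 and 2.01 CPM in the knockouts, a log2 fold change of 0.21 (SE 0.23), and knockouts 1 and 2 held both the lowest and the highest level. Scn2b averaged 1.78 ± 0.404 CPM in controls.

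**Figure D4:**
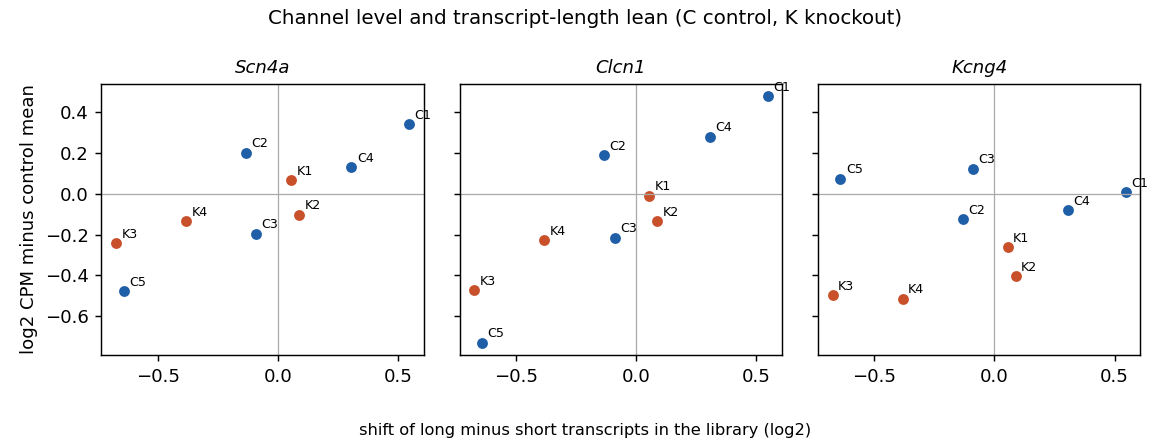
Log2 CPM minus the control mean of Scn4a, Clcn1 and Kcng4 (vertical axes) against the shift of long minus short transcripts in the same library (horizontal axes, log2), with 1 point for each of 5 controls (blue, C) and 4 knockouts (orange, K). Scn4a and Clcn1 are low in control 5 and knockout 3, the libraries with the most negative shifts, while the 4 knockout points of Kcng4 all lie below its 5 control points.

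Among chloride channels and the chloride/proton exchangers of intracellular membranes, 6 of 9 matching genes met the threshold, and the log2 fold change was below 0 in 5. Clcn1 stood at 195, 159.8, 121, 170.2 and 84.4 CPM in the controls and at 139, 128, 101 and 119.7 CPM in the knockouts. The controls spanned a wider range than the knockouts and enclosed all of them, and the log2 fold change was -0.26 (SE 0.21). It moved to -0.40 without control 5 and to -0.13 without control 1. Clcn3 and Clcn4-2 (Clcn4 in current naming), exchangers of endosomes, averaged 63.0 ± 9.78 and 50.4 ± 5.16 CPM in controls, with log2 fold changes of -0.06 (SE 0.12) and -0.09 (SE 0.10). Clcn7, the lysosomal exchanger, varied little, with a mean of 24.7 ± 1.34 CPM over the controls and 25.2 ± 2.44 CPM over the knockouts. Clcn2 and Clcn6 stood at 4.22 ± 0.720 and 5.10 ± 1.47 CPM in controls, both with a log2 fold change of -0.22.

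Inward rectifiers hold the resting potential of fibres (Kcnj2 and Kcnj12) or open when ATP runs down (Kcnj11 and Kcnj8). Of 15 matching genes, 4 met the threshold. Kcnj11 stood at 167, 186, 155, 155 and 160.0 CPM in the controls and at 155, 156, 173 and 185 CPM in the knockouts, a log2 fold change of 0.02 (SE 0.09). Kcnj12 stood at 60.1, 49.3, 60.1, 55.1 and 38.6 CPM in the controls and at 52.6, 41.9, 42.2 and 44.5 CPM in the knockouts, a log2 fold change of -0.22 (SE 0.14). Kcnj2 stood at 90.3, 64.5, 69.6, 77.5 and 52.9 CPM in the controls and at 63.2, 44.9, 47.04 and 77.3 CPM in the knockouts. Knockouts 2 and 3 lay below every control and knockouts 1 and 4 among them, and the log2 fold change was -0.29 (SE 0.19). Kcnj8, the vascular pore of ATP-sensitive channels, had means of 17.0 ± 1.85 CPM in the controls and 17.6 ± 2.77 CPM in the knockouts.

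The Kv pores repolarise the fibre after each impulse. Of 17 matching genes, 9 met the threshold, 6 with a log2 fold change below 0. Kcna7 varied little, at 203, 209.6, 194, 213 and 224 CPM in the controls and 202, 197, 223 and 206 CPM in the knockouts, with a log2 fold change of -0.01 (SE 0.08). Kcnc4 stood at 133, 183, 145, 171 and 161 CPM in the controls and at 133, 162, 167 and 163 CPM in the knockouts, a log2 fold change of -0.02 (SE 0.11), and Kcnc1 at 99.6, 84.2, 85.1, 104 and 104 CPM and 80.7, 102, 95.4 and 90.1 CPM, a log2 fold change of -0.05 (SE 0.10). The groups overlapped almost fully for all 3, and the sign of their fold changes, as of that of Kcnj11, depended on the scaling or the libraries used. Kcna5 stood at 6.53, 8.22, 9.74, 8.98 and 10.7 CPM in the controls and at 10.03, 11.1, 12.1 and 7.48 CPM in the knockouts, a log2 fold change of 0.21 (SE 0.17). Kcna1 and Kcna2, channels of axons, averaged 7.28 ± 1.73 and 4.42 ± 0.526 CPM in controls, while Kcna6 averaged 1.19 ± 0.287 CPM. Of their accessory subunits, Kcnab2 stood at 0.817, 1.30, 1.13, 0.817 and 0.698 CPM in the controls and at 0.735, 1.68, 1.56 and 1.22 CPM in the knockouts, a log2 fold change of 0.44 (SE 0.29), and Kcnab1 averaged 6.46 ± 1.91 CPM in controls, a log2 fold change of -0.03 (SE 0.21).

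Kcnh2, the ERG channel that repolarises the heart, was the member with the highest log2 fold change, 0.47 (SE 0.20), with an adjusted p of 0.967 in edgeR. It stood at 3.86, 6.19, 3.45, 4.45 and 5.33 CPM in the controls and at 4.80, 6.36, 8.30 and 6.36 CPM in the knockouts. Knockouts 2, 3 and 4 lay above every control and knockout 1 among them. The value was 0.32 without control 5 and knockouts 3 and 4, and lay between 0.32 and 0.60 over the alternatives run. Of the calcium-activated channels, Kcnma1, the large-conductance channel, stood at 78.7, 52.2, 61.3, 52.8 and 47.3 CPM in the controls and 51.4, 59.4, 44.5 and 39.6 CPM in the knockouts, with a log2 fold change of -0.26 (SE 0.16). Controls 1 and 3 lay above every knockout, and knockouts 3 and 4 lay below every control. Of the small-conductance genes, Kcnn1 stood at a similar level per kb in controls (5.18 ± 0.541 against 4.83 ± 1.03 CPM per kb for Kcnma1). In CPM, Kcnn1 stood at 20.5, 22.7, 18.8, 19.1 and 23.7 CPM in the controls and at 25.1, 20.004, 24.9 and 20.4 CPM in the knockouts, a log2 fold change of 0.11 (SE 0.11). Kcnn3, which denervated fibres express, was uneven, with a mean of 2.74 ± 1.56 CPM over the controls and 2.59 ± 1.65 CPM over the knockouts. Kcnn2 had a control mean of 1.90 ± 0.668 CPM and a log2 fold change of 0.08 (SE 0.29). The KCNQ gene Kcnq5 had a control mean of 21.6 ± 6.53 CPM and a log2 fold change of -0.22 (SE 0.27). Kcnq1 was near the threshold at 0.890 ± 0.485 CPM. Of the remaining accessory subunits, Kcne4 averaged 6.23 ± 1.42 CPM in controls and Kcnmb1, the beta subunit of the large-conductance channel in smooth muscle, 1.20 ± 0.619 CPM. Their log2 fold changes were -0.20 (SE 0.20) and 0.10 (SE 0.35).

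Of the leak channels with tandem pore domains, 5 of 14 matching genes met the threshold, with Kcnk2 and Kcnk6 highest at 4.83 ± 0.593 and 4.15 ± 0.418 CPM in controls. Kcnk5 and Kcnk1 averaged 2.50 ± 0.637 and 1.23 ± 0.467 CPM, with log2 fold changes of 0.07 (SE 0.21) and -0.24 (SE 0.30). Kcnk3, an acid-sensitive leak channel that is also expressed in brown fat, had the lowest log2 fold change of the members, -0.86 (SE 0.51), with an adjusted p of 0.967 in edgeR. It stood at 1.18, 1.74, 1.20, 7.26 and 2.74 CPM in the controls and at 1.64, 1.31, 1.802 and 1.43 CPM in the knockouts. The knockouts and controls 1 to 3 lay together, and control 4, followed by control 5, stood above them. These were also the controls richest in adipocyte transcripts. The sum of 6 adipocyte markers was 647 and 645 CPM there, 217 to 363 CPM in controls 1 to 3 and 211 to 335 CPM in knockouts. Ucp1, the uncoupling protein of brown fat, had 366 and 141 counts in controls 4 and 5 and 2 to 16 counts in the other 7 libraries. Without controls 4 and 5 the log2 fold change of Kcnk3 was 0.18, and without control 4 alone it was -0.14. The 6 markers themselves all had log2 fold changes below 0, with a median of -0.87, and none passed edgeR's test. At an unadjusted p under 0.05 in edgeR there were 3 of the 6, where the background is 1.8% of tested genes in this direction. The markers were listed with earlier results of these data known, and their sums were highest in controls 4 and 5. The count is thus a description and no independent support for a difference between the groups. All 6 had counts in the libraries. The part of these transcripts in the Kcnk3 values was not tested.

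**Figure D5:**
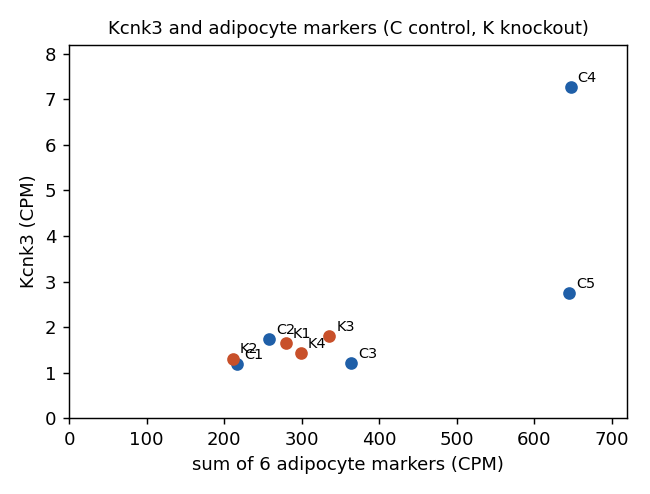
Kcnk3 in CPM (vertical axis) against the summed CPM of 6 adipocyte markers (horizontal axis) in each library (C, 5 controls, blue; K, 4 knockouts, orange). Control 4, at 7.26 CPM, and control 5, at 2.74 CPM, have both the highest Kcnk3 and the highest marker sums.

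Genes that work beside these channels were taken from a list of 52 pumps, partners, cotransporters and channels of other families, of which 45 were tested and 3 had 0 counts in all libraries. None passed edgeR's test, against a background of 0% of tested genes. At an unadjusted p under 0.05 there were 0, where the background is 1.8% lower and 1.38% higher. The log2 fold change was below 0 in 30 and above 0 in 15, with a median of -0.08. Below 0 also lay 50.6% of all tested genes and 31 of the 47 channel genes. The sodium pump, which restores the gradients after each impulse, was followed through its beta subunit Atp1b2, at a control mean of 531 ± 40.7 CPM and a knockout mean of 551 ± 20.01 CPM. The log2 fold change of Atp1b2 was 0.06 (SE 0.09) and that of the pump's regulator Fxyd1 0.11 (SE 0.20). Abcc9, the partner of Kcnj11 in ATP-sensitive channels, had means of 275 ± 78.8 CPM in the controls and 226 ± 44.4 CPM in the knockouts, a log2 fold change of -0.28 (SE 0.21), and its relative Abcc8 averaged 3.60 ± 0.918 CPM in controls. Fgf13, which binds sodium channel pores, had means of 37.7 ± 3.97 CPM in the controls and 37.6 ± 0.654 CPM in the knockouts, and the scaffold Ank3 had a log2 fold change of -0.19 (SE 0.18). The anoctamin Ano5, listed with chloride channels, showed a log2 fold change of -0.24 (SE 0.20) and the cotransporter Slc12a2 one of -0.18 (SE 0.13).

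Relative to their mean, the 47 genes had a median coefficient of variation of 22.2% over the controls, against 16.5% for tested genes in general. This difference was not tested. The members were not matched to the tested genes for level, and counting error weighs more on genes with few counts. Control 5 held the lowest of the 5 control values for 16 of 47 members and control 1 the highest for 18, where the shares over all tested genes were 29% and 27.5%. The longest annotated transcript of the members had a median of 4084 bases, against 3435 bases over tested genes. Next to the level threshold, Kcns3 and Kcne1l stood just inside with 4 libraries at 1 CPM or more. Kcne1l, an accessory subunit, stood at 1.45, 1.17, 1.28, 0.862 and 0.848 CPM in the controls and at 0.908, 2.36, 0.901 and 0.901 CPM in the knockouts. Kcnj15, Clcn5 and Scn3a stood just outside with 3 libraries each. Clcn5 ranged over the libraries from 0.0499 to 1.41 CPM and Scn3a from 0.399 to 1.77 CPM. Kcnj15 stood at 0.318, 0.850, 1.51, 2.18 and 1.05 CPM in the controls and at 0.562, 0.463, 0.522 and 0.742 CPM in the knockouts, and controls 2 to 5 lay above every knockout. Of the 70 genes under the threshold, 11 still passed the count filter, and 10 had 0 counts in every library. For 0 counts in a single library, 3 counts, or 0.117 to 0.154 CPM by library, serve as an approximate upper bound from counting error only.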

How the data were processed

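Total RNA of gastrocnemius, with an integrity number of at least 6.7 and amplified before library preparation per the labels' protocols, was sequenced in 5 control and 4 knockout libraries. The authors deposited raw read counts per gene; per the submitters' processing notes, bcl2fastq 1.8.4, TopHat, Bowtie 0.12.7, HTSeq 0.6.1 and the mm9 build were used. Counts were analysed with edgeR 4.0.16 in R 4.3.3: filterByExpr with a minimum count of 10, TMM scaling, a robust quasi-likelihood fit of knockout against control on all 9 libraries, and Benjamini-Hochberg adjustment over 13198 genes at 0.05. DESeq2 1.42.0 and limma 3.58.1 were alternatives, beside other scalings, filters and libraries left out. The fit was tested on simulated data. Levels are CPM, counts scaled to a common library size after TMM, divided for ranks by the longest GENCODE M21 transcript. These lengths, the exon overlaps and the gene order come from GRCm38, not mm9; promoters are RefSeq's. Total counts limit precision: 3 counts equal 0.117 to 0.154 CPM, for counting error only.

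The members and lists were chosen with earlier results of these data known. Values in every library are given for Kcng4, the 10 members with the highest level per kb, the 5 of smallest unadjusted p in each direction, the members with the highest and the lowest log2 fold change at 5 CPM or more, and those next to the level threshold. Some genes, 4 of the 47 among them, are not reported here by name. Same-numbered libraries of the groups were checked for pairing through the correlation of their deviations, and the numbers did not pair them. No pair of libraries of a group was close enough to be 1 library deposited 2 times, since chi-square per degree of freedom was 17.7 to 98.3.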

Additional observations from a re-analysis of the deposited data

Results flagged for a closer look

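In 7 of 86 screens, 1 for each of 43 channel genes in each group, 1 library stood apart from the others of its group by Dixon's criterion, which chance meets in about 1 of 20 groups. Kcnk3 was at 7.26 CPM in control 4, where the other controls were at 1.18 to 2.74 CPM, and control 4 was also the library richest in Ucp1. Kcnj8 was at 13.8 CPM in control 3, below the 17.1 to 18.4 CPM of the other controls. Scn2b was at 2.49 CPM in control 5, above the 1.51 to 1.68 CPM of the other controls, and at 2.17 CPM in knockout 4, above the 1.52 to 1.56 CPM of the other knockouts. Kcnc4 was at 133 CPM in knockout 1, below the 162 to 167 CPM of the other knockouts. Kcne1l was at 2.36 CPM in knockout 2, above the 0.901 to 0.908 CPM of the other knockouts. Kcna2 was at 5.25 CPM in knockout 4, above the 3.92 to 4.08 CPM of the other knockouts. Knockout 4 met the criterion for 2 genes and no library met it for more.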

How the results depend on the processing

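No channel gene was called under any alternative run, with edgeR, DESeq2 or limma-voom. Over all tested genes DESeq2 called 7 genes and edgeR with the replicate block called 1, where the main fit called 0. The libraries share only a number: same-numbered pairs had correlations of 0.42, -0.13, 0.30 and 0.01, and not every library was closest to its own number. Between 25 and 32 channel genes had a log2 fold change below 0 over all alternatives, and the median was -0.11 to -0.02. With the median transcript length 3 channel genes ranked among the 1000 highest in place of 5, and with any control left out 5 to 6 did. A threshold of 0.5 CPM left 57 genes and one of 2 CPM left 37. Of 339 values for 18 genes given in every library, 318 kept their direction and 21 reversed, all of them small apart from Kcnk3. Upper-quartile scaling gave Kcna7 0.0164 and Kcnc4 0.00739, library totals gave Kcnj11 -7.42e-05, and the replicate block gave Kcna7 0.0243 and Kcnc4 0.000438. Without control 5 and knockouts 3 and 4, Kcnj11 was -0.0894. Without controls 4 and 5, Kcna7 was 0.0455, Kcnj11 -0.00767, Kcnc4 0.0381, Kcnc1 0.0483 and Kcnk3 0.178. Leaving out 1 library at a time gave Scn4b -0.0812 to 0.00719, Kcnc4 -0.078 to 0.0474, Kcna7 -0.0506 to 0.0254, Kcnc1 -0.102 to 0.00656, Scn3b -0.00901 to 0.387 and Kcnj11 -0.0301 to 0.0701. The cause of these reversals was not tested. For genes near 1 CPM the counts limit what could be detected.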

Other observations

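Channel genes that neighbour each other on a chromosome of the reference often stood at very different levels in muscle. On chromosome 9, Scn4b averaged 84.6 CPM per kb in controls and its neighbour Scn2b 0.382 CPM per kb. On chromosome 11, Kcnj2 averaged 13.03 CPM per kb and Kcnj16, which encodes an inward rectifier of kidney and glia, 0.00219 CPM per kb. On chromosome 3, Kcna2 averaged 0.381 CPM per kb. It lies between Kcna3, the Kv channel of lymphocytes, at 0.0136 CPM per kb and Kcna10 at 0.0284 CPM per kb. In the cluster on chromosome 6, Kcna5 stood at 3.09, Kcna1 at 1.81 and Kcna6 at 0.203 CPM per kb. Of the 47 genes, 9 lie on chromosome 7.

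The 10 channel genes with 0 counts in all 9 libraries were Kcne2, Kcng3, Kcnh8, Kcnj1, Kcnk16, Kcnk9, Kcns2, Kcnv1, Scn10a and Scn9a. Scn9a and Scn10a encode sodium channel pores of sensory neurons, and Kcnj1 an inward rectifier of the kidney. Over the 70 genes under the level threshold, the median control level was 0.0652 CPM.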
